A study of Mus musculus with 5 samples.

Results

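Long noncoding RNA genes with a measurable level in B16F10 cells, an established mouse melanoma line, were described across 5 RNA sequencing libraries. A gene was taken when the deposited table called it lincRNA, lncRNA, antisense, bidirectional promoter lncRNA or sense overlapping, gave it a name, and listed it at 2 FPKM or more in at least 1 library. The members were thus selected on their FPKM in these same libraries. FPKM is the number of reads scaled to gene length and to a size that the authors set for each library, so it can be compared between genes of different length. That size was not the assigned total, but 0.859 times it in the Myod1 library and 1.096 times it in the Pparg library, with the others in between. H19, Meg3, Rian and Mirg were left out, of which H19 alone reached the limit. The rule chose 231 of the 54699 genes in the table, out of 8577 named genes of these classes. They were 127 genes of the class lincRNA, the table's word for intergenic RNA although some of them overlap a protein-coding gene, 91 antisense genes, 12 genes that share a promoter region with a neighbour, and 1 sense overlapping gene.

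Long noncoding RNAs are transcribed and often spliced like messenger RNAs but mostly are not known to be translated. Some hold small nucleolar RNAs or microRNAs in their introns and are processed to release them, others form part of nuclear bodies, and many are made from the promoter or the opposite strand of a protein-coding gene. They are usually less abundant than messenger RNAs and more restricted to particular cell types.

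Every group was 1 library of lentivirus-treated B16F10 cells grown in DMEM with serum. Cells made to express mouse Myod1, the transcription factor that starts skeletal muscle differentiation, or mouse Pparg, the nuclear receptor that drives fat cell differentiation, were collected on day 8 with a control that carried the empty expression vector. Cells with a short hairpin RNA against Setdb1, which methylates lysine 9 of histone H3, were collected on day 7 with a control that carried the empty knockdown vector. Promoters of the vectors, clone numbers and the number of cultures were not given in the sources used here. Because no group was replicated, conditions could not be tested against each other. All ratios compare 2 libraries, intervals cover read counting only, and fewer cells of a type cannot be told apart from less RNA per cell.

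The libraries held between 16214802 and 18300670 reads assigned to genes. Myod1 was listed at 260 FPKM in its own library and at 0 in the expression vector control. Pparg was listed at 44.4 FPKM against 0, and Setdb1 at 0.867 FPKM in the knockdown against 9.82 in its control. All 7 melanocyte markers examined were present in both controls, with summed FPKM of 7583 and 8222, and the sum was 3110 with Myod1, 2195 with Pparg and 8985 with Setdb1 knockdown. The knockdown sum hides opposite changes against its control. Pmel was at 4347 against 2993 FPKM, Dct at 906 against 835 and Sox10 at 298.5 against 244. Mitf was at 13.7 against 41.6 FPKM, Tyr at 52.9 against 76.9, Tyrp1 at 2285 against 2885 and Mlana at 1082 against 1146. The 5 skeletal muscle markers summed to 20991 FPKM with Myod1 and to at most 1.91 elsewhere, and the 5 adipocyte markers to 301 FPKM with Pparg, of which Plin1 reached 1.25 and Adipoq 0.0756. Of the leukocyte markers Cd68, Ptprc, Cd3e and Csf1r, Cd68, a lysosomal protein also made outside leukocytes, was the one above 1 FPKM, at 1.87 to 18.7, while Ptprc, Cd3e and Csf1r were at or near 0. Endothelial, fibroblast and keratinocyte lists summed to at most 2.50 FPKM in any library.

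The long noncoding RNA genes were low in abundance. The highest FPKM of a member over the 5 libraries had a median of 3.90, against 13.9 for the 9889 protein-coding genes that passed the same limit, and 187 of the 231 never exceeded 10 FPKM. The library in which a member had most reads held a median of 85, and 77 members stayed under 50 reads everywhere. The genes were short, with a median length of 998 bases and 2 exons in the longest transcript, against 4319 bases and 8 exons for the protein-coding genes, while the median GC content was 50.2% against 50.3%. Names that stand for a predicted gene or a clone were carried by 194 members.

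The limit of 2 FPKM shaped what could be seen. In 116 members it was reached in 1 library alone, and that library was the Myod1 library for 72, Setdb1 knockdown for 32, Pparg for 6, and each control for 3. Members that passed through 1 treated library had to be higher there or close to the limit, so counts of higher members describe this selection as well as the cells. In 33 members the limit was reached in all 5 libraries. Just inside the limit were Gm44710 at 2.02 FPKM, Gm20300 at 2.03 and D830050J10Rik at 2.04 in their highest library. Just outside were 1810012K08Rik at 1.99, Gm14167 and 1700116B05Rik, each at 1.997.

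Members took up 0.203% of the assigned reads with Myod1, 0.201% with Pparg, 0.148% in the expression vector control, 0.313% with Setdb1 knockdown and 0.158% in the knockdown vector control. The share was thus highest in the knockdown library. Without Gm26917, the member with the highest FPKM in any library, the shares were 0.168%, 0.176%, 0.135%, 0.196% and 0.143%, so a large part of the difference lay in 1 gene. The number of members at 2 FPKM or more was 157 with Myod1, 126 with Setdb1 knockdown, 82 with Pparg, 79 in the expression vector control and 75 in the knockdown vector control. Members without a single read numbered 4 with Myod1 and between 32 and 40 in the other libraries. Both sets of counts use the values that chose the members, and 72 members passed the limit with Myod1 alone. The counts thus follow in part from the rule.

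With Myod1, more members were higher than lower. A gene was counted as changed when log2(FPKM + 1) differed by at least 1, that is 2-fold on a scale that understates the change of low genes. Of the 231 members 95 were higher and 15 lower with Myod1 than in the expression vector control. Of all 11050 genes at 2 FPKM in at least 1 library, 14.5% were higher and 8.20% lower. The median log2 ratio of the members was 0.66, against 0.03 over all genes. Against both control libraries 88 members were higher and 11 lower, where the shares over all genes were 12.4% and 5.07%. Of the 187 members with a highest FPKM of 2 to 10, 70 were higher and 13 lower with Myod1, against 12.2% and 7.88% of all genes in that range. Of the 72 members that reached the limit with Myod1 alone, 65 were among those higher.

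The excess of higher members was not seen among those already expressed in the control. Of the 79 members at 2 FPKM or more in the expression vector control, 11 were higher and 13 lower with Myod1, with a median log2 ratio of -0.05. Of all 9312 genes at that level in this control, 9.40% were higher and 9.57% lower. This restriction, chosen after the data were seen, removes members that passed through the treated library, and it also removes every gene that was silent in the control.

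**Figure D1:**
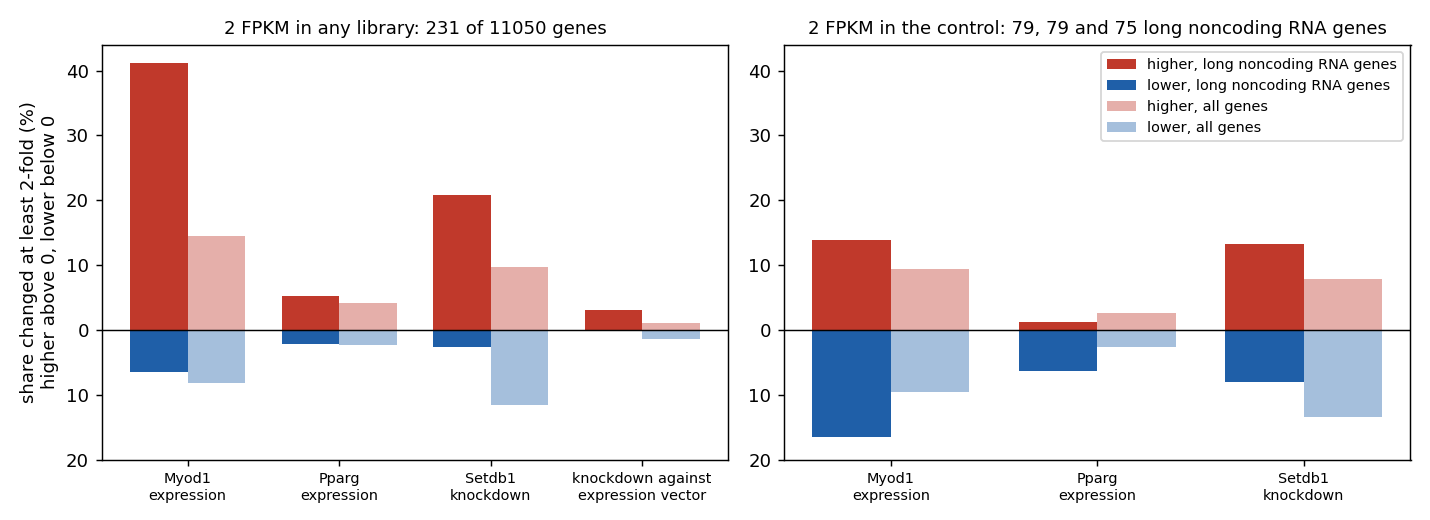
Share of genes at least 2-fold higher (red, above 0) or lower (blue, below 0), in percent, for the long noncoding RNA genes (dark) and all genes (pale), 1 library per group. On the left, with 2 FPKM required in any library, 95 of 231 members were higher with Myod1; on the right, with 2 FPKM required in the control of each comparison, 11 of 79 were.

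The members with the largest rise under Myod1 had almost no reads elsewhere. Gm36543, an intergenic RNA on chromosome 10, was at 27.5 FPKM with Myod1, with a 95% Wilson counting interval of 24.2 to 31.2, and at 0 in the other 4 libraries. Set against a floor of 3 reads in the expression vector control, it was at least 81.0-fold higher. 2310043L19Rik was at 25.6 FPKM with Myod1 and at 0 in the others, at least 97.3-fold higher by the same floor. The Myod1 library stood alone for both genes, at 234 and 281 reads. 5430431A17Rik was at 26.6 FPKM with Myod1, 0.591 with Pparg, 0.0770 and 0.150 in the expression and knockdown vector controls, and 0 with Setdb1 knockdown. Its control value rests on 1 read and has an interval of 0.0136 to 0.436 FPKM.

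Gm36328, antisense to the phosphatase gene Dusp16, was at 22.2 FPKM with Myod1 and at 0 in the expression vector control, at least 52.3-fold higher, while Dusp16 itself differed by 0.08 on the log2 scale. Gm19866 was at 15.2 FPKM with Myod1 and 0 in all other libraries, and Gm33926 at 14.8 and 0. Gm44169 was at 14.9 FPKM with Myod1 and at most 0.291 elsewhere, and Gm32219, with 368 reads in the Myod1 library, at 12.9 FPKM and at most 0.0329 elsewhere. All 8 had the Myod1 library on top with no value above 0.591 FPKM in another. Of their protein-coding neighbours, only Mef2a, a muscle transcription factor gene 56215 bases from Gm33926, was also at least 2-fold higher with Myod1, at 18.7 FPKM against 2.41.

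Myod1 protein binds E-boxes, short DNA motifs of the form CANNTG, with a preference for the forms CAGCTG and CACCTG. RefSeq promoter sequences (GRCm38.p6, 250 bases before to 50 after a start) were found for 123 of the 231 members, with 164 starts. A RefSeq start can lie far from the deposited start, as in Gm33926 (7295 bases) and Gm32219 (13068 bases). Of members higher with Myod1 against both controls with at least 50 reads, 15 had a RefSeq start at the deposited start. Members higher with Myod1 gave 78 promoters from 55 genes. CAGCTG on either strand, which reads the same on both, was in 15 of the 78 promoters of members higher with Myod1 (19.2%), against 16.3% of all 32851 promoters of the table. CACCTG or its reverse complement was in 25.6% against 20.2%, and the general form CANNTG, which overlaps both, in 76.9% against 72.3%. In the 81 promoters of members under 2-fold with Myod1 the shares were 16.05% for CAGCTG, 18.5% for CACCTG and 76.5% for CANNTG, so the general form was as frequent there. Also searched on both strands were the direct repeat bound by Pparg, which is AGGTCA followed by any base and AGGTCA again, found in none of the 164 and in 0.0396% of all, TGACTCA, the AP-1 site, and CACGTG, the E-box bound by Mitf and Myc and also a case of CANNTG. The AP-1 site was in 7.69% of the promoters of members higher with Myod1, 9.76% of those of all members and 5.20% of all promoters, and CACGTG in 6.41%, 9.76% and 7.15%. A match is a description of the letters in this window.

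The promoters of 4 members that rose with Myod1 show such motifs next to the deposited start. They are those with the highest ratios among members whose RefSeq start equals the deposited one, that had 50 reads or more, and that hold CAGCTG or CACCTG. This choice was made after the motif search and so says nothing about how common the motifs are. Capitals mark CAGCTG, or CACCTG on either strand, and sequences run 5′ to 3′ on the strand of the gene.
2310043L19Rik, chr1:177642894-177643193, minus strand: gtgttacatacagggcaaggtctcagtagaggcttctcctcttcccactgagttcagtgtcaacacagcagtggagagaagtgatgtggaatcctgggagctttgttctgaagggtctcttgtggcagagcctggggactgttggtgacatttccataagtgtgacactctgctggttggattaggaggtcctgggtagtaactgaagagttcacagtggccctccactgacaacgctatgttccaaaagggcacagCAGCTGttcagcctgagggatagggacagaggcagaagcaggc
5430431A17Rik, chr7:44484267-44484566, plus strand: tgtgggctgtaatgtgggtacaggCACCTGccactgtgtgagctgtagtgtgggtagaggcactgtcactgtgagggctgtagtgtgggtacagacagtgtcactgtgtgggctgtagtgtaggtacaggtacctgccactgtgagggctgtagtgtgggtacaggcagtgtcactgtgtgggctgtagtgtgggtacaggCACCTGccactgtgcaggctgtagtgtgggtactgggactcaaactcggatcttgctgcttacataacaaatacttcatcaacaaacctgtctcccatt
Prr33, chr7:142506722-142507021, minus strand: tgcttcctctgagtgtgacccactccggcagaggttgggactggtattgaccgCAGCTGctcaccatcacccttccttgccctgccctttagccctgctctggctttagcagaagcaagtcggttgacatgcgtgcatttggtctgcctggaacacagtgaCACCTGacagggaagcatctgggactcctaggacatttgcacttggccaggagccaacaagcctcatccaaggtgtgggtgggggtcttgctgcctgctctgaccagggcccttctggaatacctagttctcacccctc
A930003A15Rik, chr16:19884225-19884524, minus strand: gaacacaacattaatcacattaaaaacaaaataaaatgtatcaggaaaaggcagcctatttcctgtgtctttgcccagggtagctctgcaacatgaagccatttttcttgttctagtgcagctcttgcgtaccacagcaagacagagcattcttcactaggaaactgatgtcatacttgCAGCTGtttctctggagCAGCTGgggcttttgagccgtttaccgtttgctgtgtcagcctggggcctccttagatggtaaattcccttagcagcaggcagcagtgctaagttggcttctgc
The 2310043L19Rik promoter, with a single CAGCTG, belongs to a gene seen in the Myod1 library alone. In 5430431A17Rik both capitalised motifs lie in a repeated stretch of sequence.

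Prr33 and A930003A15Rik were chosen for their promoters after their values were seen. Prr33 was at 13.2 FPKM with Myod1, 0.0222 with Pparg, 0.0521 in the expression vector control, 0.138 with Setdb1 knockdown and 0 in the knockdown vector control. A930003A15Rik was at 4.63 FPKM with Myod1 and at 0 in the other 4 libraries.

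A muscle microRNA precursor stood among the members seen with Myod1 alone. Gm28653, on chromosome 1 from base 20669882 to 20684298 of the plus strand, contains the microRNA genes Mir206 and Mir133b, which are specific to muscle. It was at 4.04 FPKM (353 reads, interval 3.64 to 4.49) with Myod1 and at 0 in the other 4 libraries, at least 122-fold above the control floor. AL805899.1, which contains Mir31 on its own strand on chromosome 4, went the other way. It was at 0.702 FPKM with Myod1, 2.02 with Pparg, 3.21 in the expression vector control, 2.04 with Setdb1 knockdown and 2.42 in the knockdown vector control, a log2 ratio of -1.31 with Myod1. The Myod1 library was the lowest of the 5, on 12 reads. The mature microRNAs themselves were not measured in these libraries. Their RefSeq sequences (GRCm38.p6) are given with bases 2 to 8, the seed that pairs with target messages, in capitals.
mmu-miR-206-3p, chr1:20679055-20679076, plus strand: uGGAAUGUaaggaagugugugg
mmu-miR-133b-3p, chr1:20682834-20682855, plus strand: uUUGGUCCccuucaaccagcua
mmu-miR-31-5p, chr4:88910614-88910635, minus strand: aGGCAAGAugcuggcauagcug
The 3 seeds differ from each other. Further members with a microRNA gene inside were Snhg10 (Mir3069), Snhg20 (Mir6516) and, on the opposite strand, Gm26694 (Mir3082).

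Fewer members were lower with Myod1, and the 8 named here were at 2 FPKM or more in both controls. Gm20618 had the lowest ratio. It was at 0.787 FPKM with Myod1, 1.40 with Pparg, 7.41 in the expression vector control, 3.34 with Setdb1 knockdown and 7.48 in the knockdown vector control, so that both controls lay above all treated libraries and differed little from each other. The log2 ratio was -2.23 with Myod1, and the counting intervals of 0.498 to 1.24 FPKM and 6.39 to 8.58 FPKM did not overlap. Zfp469 was at 0.289 FPKM with Myod1 against 3.04, a log2 ratio of -1.65. Gm45869 was at 1.64 FPKM against 6.57, with the other libraries between 5.17 and 5.85, so the Myod1 library alone was low. Eif2c5 and Gm829 had log2 ratios of -1.12 and -1.05, and Gm26694 of -1.03.

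Gm38399 was lower in all 3 comparisons. It was at 3.05 FPKM with Myod1, 4.60 with Pparg, 11.2 in the expression vector control, 1.91 with Setdb1 knockdown and 7.96 in the knockdown vector control. Gm38399 lies on chromosome 1 within Nav1, a gene for a microtubule-binding protein, on the same strand, and RefSeq lists its symbol as an older name of Nav1. Nav1 had log2 ratios of -1.64, -1.21 and -1.31 beside -1.59, -1.13 and -1.62 for Gm38399. With the knockdown vector control in place of the expression vector control, the ratio of Gm38399 under Pparg was -0.68.

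**Figure D2:**
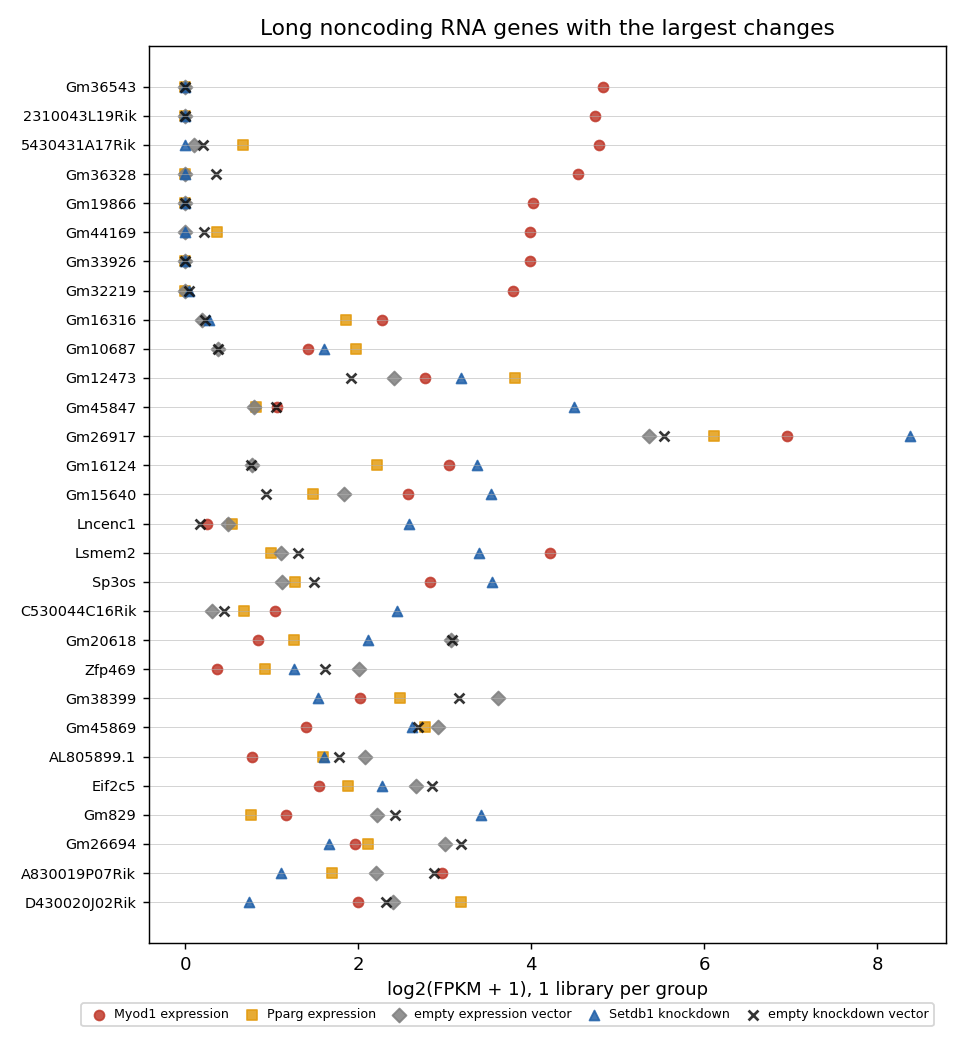
Level of each named member, as log2(FPKM + 1), in the 5 libraries (1 point per library). The top 8 genes, with the largest rises under Myod1, have the Myod1 point at 3.79 or more above a control value near 0, while the members highest with Setdb1 knockdown, such as Gm45847, were mostly detected in their control too.

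With Pparg, few members moved. Of the 231 members 12 were higher and 5 lower than in the expression vector control, where 4.20% of all 11050 genes were higher and 2.32% lower. The median log2 ratio was 0.04 over the members and -0.04 over all genes. Against both controls 7 members were higher and 2 lower, against 3.38% and 0.950% of all genes. Of the 79 members at 2 FPKM or more in the control 1 was higher and 5 were lower, against 2.60% and 2.65% of all genes at that level. Of the 187 members with a highest FPKM of 2 to 10, 11 were higher and 4 lower, against 3.91% and 1.69% of genes in that range. The comparison shares its control library with that of Myod1.

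With at least 50 reads and the same direction against both controls, 3 members were higher with Pparg, all antisense. Gm16316, antisense to Pkig, which encodes an inhibitor of protein kinase A, was at 3.84 FPKM with Myod1, 2.61 with Pparg, 0.144 in the expression vector control, 0.207 with Setdb1 knockdown and 0.176 in the knockdown vector control. The Myod1 and Pparg libraries were thus high and the other 3 low. The log2 ratio with Pparg was 1.66, and Pkig differed by 0.07 with Pparg and by 2.35 with Myod1. Gm10687, antisense to the cell adhesion gene Mcam, was at 1.67, 2.92, 0.303, 2.04 and 0.296 FPKM in the same order, with both controls low and all treated libraries higher. Its log2 ratio with Pparg was 1.59, and that of Mcam 1.64.

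Gm12473, antisense to Npr2, the receptor for C-type natriuretic peptide, was at 5.82 FPKM with Myod1, 13.1 with Pparg, 4.34 in the expression vector control, 8.12 with Setdb1 knockdown and 2.79 in the knockdown vector control. Its log2 ratio with Pparg was 1.40 and that of Npr2 1.12, and 49.2% of its exon bases also lie in exons of other genes, namely Npr2. The members with the smallest distance from Gm12473 in centred log2(FPKM + 1) over the 5 libraries were Gm10687 (root mean square distance 0.24), Gm30025 (0.36) and 0610012D04Rik (0.36). Lower with Pparg against both controls were Gm20618, at 1.40 FPKM against 7.41, and Gm829, at 0.695 against 3.64. Both were also lower with Myod1, in a comparison with the same control library.

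With Setdb1 knockdown, higher members outnumbered lower ones, while over all genes lower ones were slightly more frequent. Of the 231 members 48 were higher and 6 lower than in the knockdown vector control, against 9.67% and 11.5% of all 11050 genes. The median log2 ratio was 0.24 over the members and 0.01 over all genes. Against both controls 33 members were higher and 4 lower, against 5.94% and 8.70% of all genes. Of the 75 members at 2 FPKM or more in the control 10 were higher and 6 lower, with a median of -0.06, against 7.92% and 13.4% of all genes at that level. In the range of 2 to 10 FPKM 36 of 187 members were higher and 5 lower, against 7.59% and 11.4% of all genes there. Of the 32 members that reached the limit with Setdb1 knockdown alone, 16 were at least 2-fold higher than in the knockdown vector control.

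Gm45847, an intergenic RNA on chromosome 7, had the largest log2 ratio of FPKM + 1. It was at 1.08 FPKM with Myod1, 0.759 with Pparg, 0.742 in the expression vector control, 21.5 with Setdb1 knockdown and 1.07 in the knockdown vector control. The knockdown library stood alone, with 821 reads against 37 and intervals of 20.1 to 23.0 and 0.779 to 1.48 FPKM, a 20.1-fold ratio of FPKM. Lncenc1, an RNA known from embryonic stem cells, was at 0.193, 0.458, 0.408, 5.01 and 0.127 FPKM in the same order, so that again the knockdown library alone was high. Its ratio was 39.5-fold in FPKM, above that of Gm45847, on 306 reads against 7, while its nearest protein-coding gene, Enc1, 181936 bases away, had a log2 ratio of -1.35. C530044C16Rik was at 4.48 FPKM with the knockdown and at most 1.05 in the other libraries. Gm15640, antisense to Phldb2, was at 10.6 FPKM against 0.908, with log2 ratios of 2.60 for the member and -1.27 for Phldb2. Against the expression vector control the knockdown ratio of Gm15640 was 1.70.

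Gm26917, which had the highest FPKM of the members in each treated library but not in the controls, lies beside ribosomal RNA sequence. It was at 123 FPKM with Myod1, 67.9 with Pparg, 40.2 in the expression vector control, 331 with Setdb1 knockdown and 45.2 in the knockdown vector control, and the 2 controls were lowest. The log2 ratios were 1.58, 0.74 and 2.84. Gm26917 runs from base 39843013 to 39846341 of chromosome 17 on the plus strand, and the ribosomal RNA gene CT010467.1 follows on the minus strand from base 39846353 to 39848827, where RefSeq places the 18S ribosomal RNA pseudogene Rn18s-rs5. CT010467.1 was at 374, 361, 217, 274 and 183 FPKM in the same order, with log2 ratios of 0.78, 0.73 and 0.58. The part of ribosomal RNA reads in the values of Gm26917 was not tested. The members with the smallest distance from Gm26917 over the 5 libraries were Sp3os (0.35), C530044C16Rik (0.38) and Gm13027 (0.45, on at most 17 reads).

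Some members were high with both Setdb1 knockdown and Myod1. Of the 48 members higher with the knockdown 15 (31.3%) were also higher with Myod1, which is 15.8% of the 95 higher there, and these comparisons share no library. Over all 231 members 41.1% were higher with Myod1 and 20.8% with the knockdown. Both shares of the overlap were below these, but 72 members passed the limit with Myod1 alone and 32 with the knockdown alone. That rule sets the groups apart, so the overlap cannot show whether the responses are alike. Gm16124, antisense to the ubiquitin ligase gene Cul5, was at 7.27 FPKM with Myod1, 3.64 with Pparg, 0.712 in the expression vector control, 9.32 with Setdb1 knockdown and 0.695 in the knockdown vector control. All treated libraries were above both controls. Lsmem2 was at 17.6, 0.990, 1.16, 9.52 and 1.46 FPKM, and Sp3os at 6.13, 1.40, 1.17, 10.7 and 1.81 FPKM. In both genes the Pparg library stayed near the controls. Lower in both comparisons were Gm26694 and Gm38399, and Gm16104 was lower with Myod1 and higher with the knockdown, on at most 25 reads.

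Lower with Setdb1 knockdown against both controls were 4 members. A830019P07Rik was at 6.84 FPKM with Myod1, 2.23 with Pparg, 3.62 in the expression vector control, 1.16 with Setdb1 knockdown and 6.33 in the knockdown vector control. The log2 ratio was -1.76, and the control libraries themselves differed by 0.67. D430020J02Rik, which starts 192 bases from the condensin gene Ncapg2 in the opposite direction, was at 3.01, 8.12, 4.27, 0.661 and 3.99 FPKM. Its log2 ratio was -1.58 with the knockdown and that of Ncapg2 -2.44. Gm26694 had a log2 ratio of -1.53, and 96.7% of its exon bases lie in exons of other genes, among them Metrn.

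**Figure D3:**
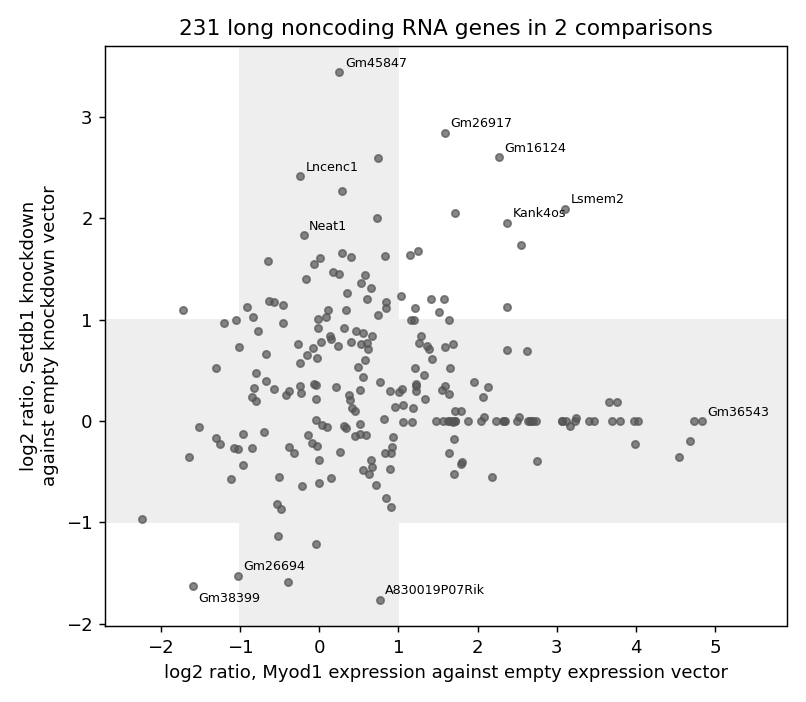
Log2 ratio of FPKM + 1 with Myod1 (x axis) and with Setdb1 knockdown (y axis) for the 231 members, each against its own control, with ratios under 2-fold in either comparison shaded. Points at exactly 0 on the y axis to the right include members seen with Myod1 alone, such as Gm36543, and 15 points lie at 1 or more on both axes.

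Between the 2 controls 7 members were higher with the knockdown vector and none lower, against 1.02% and 1.37% of all genes, or 2.39% in either direction. All 7 had a highest FPKM of 2 to 10, where 1.50% of all genes were higher and 0.887% lower. These libraries differed in vector and day. Of the 7, 1 had at least 50 reads in the higher library, 2700038G22Rik with 73 against 21 reads. No test was possible, and with a pseudocount of 0.1 in place of 1 the number that differed was 46. In the 3 comparisons 80 members passed 2-fold in none, 125 in 1, 22 in 2 and 4 in all 3, namely 1700058P15Rik, Gm10687, Gm16124 and Gm38399. These counts follow in part from the rule, since 116 members reached the limit in 1 library alone. The Myod1 and Pparg comparisons also share a control, and the counts were not made over all genes. The Pparg call of 1700058P15Rik rests on 8 reads against 0, and 7 reads were in the other control.

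Many members lay over or beside a protein-coding gene. The gene spans of 93 members overlapped one on the opposite strand and of 8 on the same strand, 30 started within 1 kb of one in the other direction, 39 were within 10 kb and 61 farther away. Whether reads were counted by strand was not given in the sources used here, so reads of overlapping exons cannot be told apart, and 59 members share at least 10% of their exon bases with other genes. Among the 95 members higher with Myod1 the overlapping or nearest protein-coding gene was also higher in 24 (25.3%), against 9 of the 121 members that differed by under 2-fold (7.44%). With overlap the counts were 13 of 41 against 2 of 53, and without it 11 of 54 against 7 of 68. Of those without overlap, divergent starts within 1 kb gave 3 of 9 against 0 of 21. Other pairs within 10 kb gave 4 of 14 against 2 of 23. Farther away it was 4 of 31 against 5 of 24, the other way round. The neighbour of a member higher with Setdb1 knockdown was also higher in 5 of 48 and lower in 5, against 11 higher and 18 lower of 177. Over all protein-coding genes at 2 FPKM 13.1% were higher with Myod1, 9.29% were higher and 11.6% lower with the knockdown, so the neighbours under the knockdown were near those shares. The sets differ, since the counts above take in neighbours under 2 FPKM: 72 of the 95 and 41 of the 48 had a neighbour at 2 FPKM or more.

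The neighbours that rose with Myod1 included muscle genes, and the following pairs were chosen after their values were seen. Prr33 overlaps Tnnt3, which encodes fast skeletal troponin T, and the log2 ratios were 3.76 and 10.84. C130080G10Rik starts 787 bases from Actc1, which encodes cardiac actin. It was at 2.19 FPKM with Myod1 and at 0 in the other libraries, while Actc1 was at 2378 FPKM with Myod1 and 0 in the control. Gm49540 overlaps the myoglobin gene Mb, at 2.29 against 228 FPKM in the Myod1 library, and 64.6% of its exon bases lie in Mb exons. Gm15906 and Fndc5, 89 bases apart, were at 5.32 and 187 FPKM with Myod1. In each of these pairs the long noncoding RNA was the less abundant of the 2.

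Smaller rises stood beside other muscle genes. Chrna1os, near the acetylcholine receptor gene Chrna1, had a log2 ratio of 1.22 with Myod1 and Chrna1 of 6.23. A430046D13Rik had 1.22 and its neighbour Myl6b, a myosin light chain gene, 5.23. AC166164.1 had 1.66, on 19 reads against 1, and Apobec2, which it overlaps, 6.12. Members and neighbours also moved apart. Kank4os was at 4.46 FPKM with Myod1, 0.301 with Pparg, 0.0544 in the expression vector control, 3.91 with Setdb1 knockdown and 0.266 in the knockdown vector control. Kank4, on the opposite strand, was at 1.05, 1.25, 7.35, 0.913 and 8.33 FPKM. The 2 libraries with most Kank4os had the lowest Kank4, with log2 ratios of 1.96 and -2.29 under Setdb1 knockdown. Kank4 was nearly as low with Pparg, at 1.25 FPKM, although Kank4os was at only 0.301 there.

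**Figure D4:**
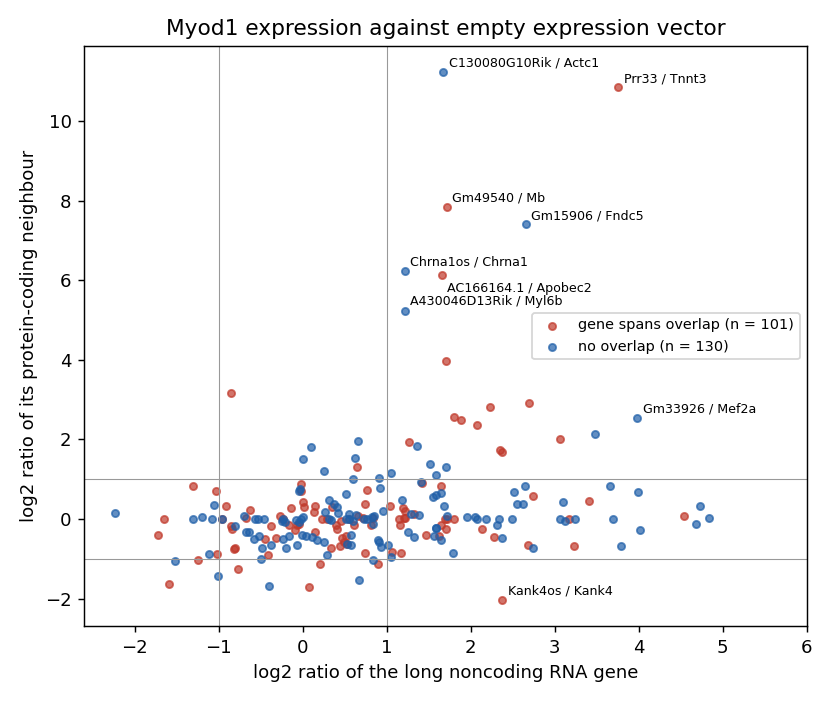
Log2 ratio of FPKM + 1 with Myod1 against the expression vector control for each member (x axis) and its overlapping or nearest protein-coding gene (y axis), with 101 overlapping pairs in red and 130 others in blue, and lines at 2-fold. Most neighbours lie between the lines; of the 95 members right of 1, 24 have a neighbour above 1.

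Among RNAs with a known role, some small nucleolar RNA hosts were higher with Setdb1 knockdown. Of 21 hosts listed, 19 were in the table, 12 reached 2 FPKM and 5 were members. Of the 12, 3 were at least 2-fold higher with the knockdown, 2 with Myod1 and none with Pparg, and none was lower. Over all genes 9.67% were higher with the knockdown and 14.5% with Myod1, the latter close to the 2 of 12. Between the controls 2 were higher with the knockdown vector, and the median difference of the 12 was 0.56. Snhg12 was at 1.96 FPKM with Myod1, 1.20 with Pparg, 1.48 in the expression vector control, 7.63 with Setdb1 knockdown and 2.17 in the knockdown vector control. Epb41l4aos was at 9.02, 12.01, 5.98, 29.2 and 10.7 FPKM, so that the knockdown library was the highest for both. Snhg6 was at 18.2, 6.37, 7.32, 16.4 and 11.1 FPKM, with a log2 ratio of 1.21 with Myod1 that was 0.66 against the knockdown vector control. Snhg20 differed by 0.77 and Snhg10 by 0.01 with the knockdown, and Snhg10 by 1.23 between the controls. Of the 8 proteins of the small nucleolar ribonucleoprotein core, Dkc1 and Nop58 were lower with the knockdown (log2 ratios -1.79 and -1.31), where 11.5% of all genes were lower.

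Among RNAs of nuclear architecture and dosage control, 16 of 17 listed were in the table and 5 were members. Neat1, the scaffold of paraspeckles, was at 1.63 FPKM with Myod1, 1.96 with Pparg, 2.01 in the expression vector control, 4.83 with Setdb1 knockdown and 0.639 in the knockdown vector control. The knockdown library was the highest and its own control the lowest. The log2 ratio was 1.83, the controls differed by -0.88, and against the expression vector control the ratio was 0.95, under 2-fold. Of 7 paraspeckle proteins, Tardbp was lower with the knockdown (-1.24) and Matr3 with Myod1 (-1.31), and none was higher. Each is 1 of 7, where 11.5% of all genes were lower with the knockdown and 8.20% with Myod1. All 7 had a log2 ratio below 0 in both comparisons. The medians were -0.82 with the knockdown and -0.87 with Myod1, against 0.01 and 0.03 over all genes. With Pparg the median was -0.43, against -0.04 over all genes. The other protein lists examined also had medians below 0, from -0.22 to -0.68 with the knockdown and from -0.36 to -0.51 with Myod1. Malat1, an RNA of nuclear speckles, was at 10.0, 18.5, 16.9, 9.11 and 9.91 FPKM, with the Pparg library and its control on top and the controls 0.71 apart.

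2900097C17Rik, which RefSeq names Norad and which binds Pumilio proteins, was nearly even, at 26.9, 27.4, 27.8, 27.3 and 21.1 FPKM. Tug1 lay between 2.77 and 4.03 FPKM. 1700020I14Rik, named Oip5os1 in RefSeq and also known as Cyrano, was at 15.2 FPKM with Myod1, 8.77 with Pparg, 6.80 in the expression vector control, 5.58 with Setdb1 knockdown and 5.64 in the knockdown vector control. Its log2 ratio of 1.05 with Myod1 fell to 0.69 when each library was divided by the sum of its FPKM. Trp53cor1, also called lincRNA-p21, was the one member of the p53 list (3 of 6 in the table). It was at 4.07, 1.40, 0.968, 2.27 and 0.961 FPKM, highest with Myod1, and Cdkn1a, the p53 target 11797 bases away, at 425, 179, 119, 262 and 119 FPKM in the same order.

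Bvht, a heart-associated RNA on the muscle list, was at 15.2 FPKM with Myod1, 12.02 with Pparg, 9.55 in the expression vector control, 22.0 with Setdb1 knockdown and 13.1 in the knockdown vector control. It was under 2-fold in each comparison with its own control, but the knockdown ratio was 1.13 against the expression vector control. Of the 9 genes on that list 5 were in the table, and the 3 at 2 FPKM were Bvht, Gm28653 and the micropeptide gene Mrln. Hotairm1, in the Hoxa cluster, was the one of 18 RNAs beside developmental regulators to reach the limit, at 0.478 to 2.11 FPKM. Of 5 fat cell RNAs listed 1 was in the table, at 0 in every library. On the microRNA host list 13 of 20 were in the table and Mir22hg alone reached 2 FPKM.

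**Figure D5:**
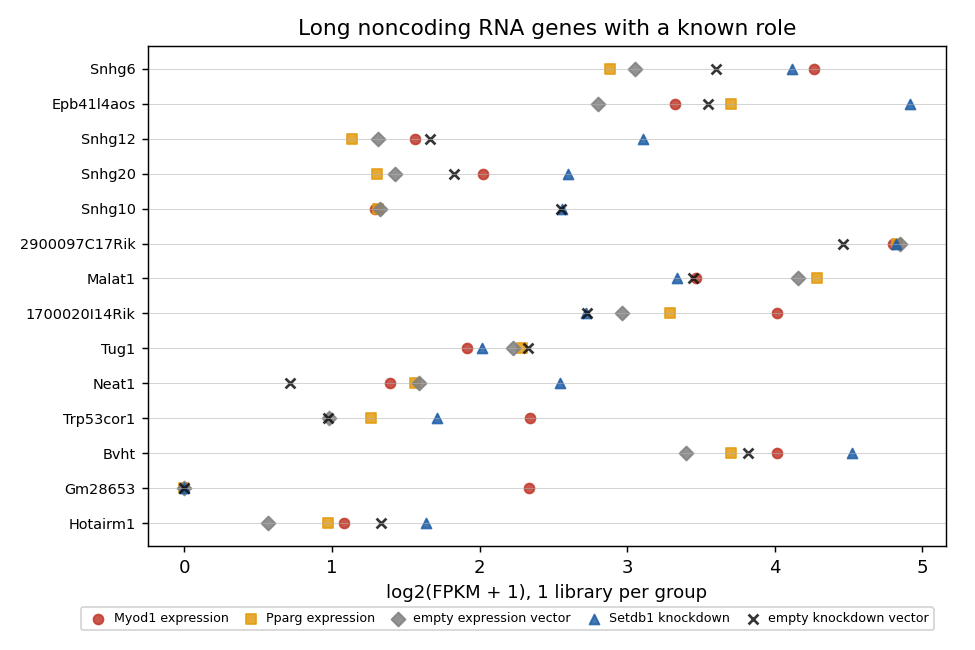
Level, as log2(FPKM + 1), of 14 members with a known role or host function in the 5 libraries (1 point per library). Neat1, Snhg12 and Epb41l4aos are highest with Setdb1 knockdown, 2900097C17Rik (Norad) is nearly even, and Gm28653 is seen with Myod1 alone.

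RNA decay factors were examined beside these genes. Over all genes 14.5% were higher and 8.20% lower with Myod1, and 11.5% lower with the knockdown, and the counts in these short lists lie near those shares or rest on 1 to 3 genes. Of 10 nonsense-mediated decay proteins 1 was higher and 2 lower with Myod1 (Smg5 at 1.06, Upf2 at -1.37 and Upf3b at the 2-fold limit), and none passed 2-fold with the knockdown. Of 15 nuclear exosome proteins and adaptors, Dis3 (-1.63), Exosc8 (-1.54) and Rbm7 (-1.36) were lower with the knockdown, and Zfc3h1 (-1.12) with Myod1. Of 7 microRNA processing proteins Xpo5 was lower with the knockdown (-1.13). None of these lists had a member above 2-fold with Pparg. The part of RNA decay in the levels of the long noncoding RNAs was not tested.

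The table's class did not always match RefSeq, where 156 of the 231 members were found. Most matches were noncoding RNAs, but 8 were protein-coding genes in RefSeq: 1810058I24Rik, Tmem250-ps, Lsmem2, Gm829, Zfp469, Gm39469, Ndufb1-ps and Gm38399. 1810058I24Rik, known to encode the micropeptide Mm47, was at 40.2 FPKM with Myod1, 48.2 with Pparg, 42.5 in the expression vector control, 73.9 with Setdb1 knockdown and 44.5 in the knockdown vector control. Tmem250-ps was at 41.6, 24.6, 21.9, 12.7 and 18.1 FPKM, under 2-fold against each library's own control, though the Myod1 ratio was 1.16 against the knockdown vector control. Ndufb1-ps, which RefSeq names Ndufb1, a subunit of respiratory complex I, was at 22.5 FPKM with Myod1 against 9.45, a log2 ratio of 1.17. Gm10076, a pseudogene in RefSeq, was at 79.5, 23.0, 41.8, 41.0 and 51.1 FPKM, and reads of near-identical copies could not be told apart from its own.

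The remaining abundant members differed by less than 2-fold from their own control in most comparisons. Gm42047 was at 18.9 FPKM with Myod1, 53.2 with Pparg, 37.7 in the expression vector control, 51.3 with Setdb1 knockdown and 56.0 in the knockdown vector control, against which the Myod1 ratio was -1.51. Gm17201, antisense to Ankrd52 with 59.5% of its exon bases in exons of that gene, was at 19.6, 16.2, 27.2, 62.8 and 31.6 FPKM, highest with the knockdown. Gm44386 was at 28.2, 8.51, 3.995, 8.82 and 1.95 FPKM, with log2 ratios of 2.55 with Myod1 and 1.73 with the knockdown. The latter was 0.97 against the expression vector control.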

How the data were processed

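Expression was measured by RNA sequencing of total RNA in 5 libraries, 1 per group. The NEBNext Ultra RNA kit was used for library construction, per the labels' protocols. The submitters' processing notes name CASAVA, HISAT2, featureCounts 1.5.0-p3 and GRCm38. The authors deposited FPKM values with gene length, position and biotype, per the file headers. Strand setting, shared reads, poly(A) selection and normalization were not given in the sources used here.

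In each library FPKM times length was a whole multiple of a single step for 100% of values (tolerance 0.001). The step gave the reads and the authors' library size, and the reads were used for depths, 95% Wilson intervals and floors of 3 reads that cover counting error only. Ratios are log2(FPKM + 1) of the treated minus the control library, with a 2-fold limit and no test. Positions equalled GENCODE M21 for 98.3% of shared identifiers, which gave exons and GC content. Named genes are the 10 most abundant members, up to 8 per direction and comparison with 50 reads and 2-fold against both controls, members of 12 lists, those with a RefSeq protein, and the neighbours of those named by change. Members, lists and rules were chosen with earlier results of these data known. No columns of other samples were present. Python 3.11.15, numpy 2.4.6, pandas 2.3.3 and scipy 1.17.1 were used, and the scripts were tested on simulated data.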

Additional observations from a re-analysis of the deposited data

How the results depend on the processing

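No paired analysis was possible because each group had 1 library. No member count had a test, so the values below describe these libraries. Over all counts and settings, 54 recomputed counts stayed within 1.5 times those reported and 35 did not, and no named ratio past 2-fold changed direction under a pseudocount of 0.1, column sums, median centring, the 75th percentile or the other control. With a pseudocount of 0.1, lower members numbered 28 (Myod1), 16 (Pparg) and 21 (Setdb1 knockdown), higher ones 41 (Pparg) and 80 (knockdown), and 46 differed between controls. With a mean of 2 FPKM, 35, 3 and 22 were higher in that order and 3 lower with Pparg, so that the Pparg split was even. Without a filter, 19 were higher with Pparg and 11 lower with the knockdown. At 4-fold, 43, 2 and 9 were higher, 1, 0 and 0 lower, and 0 differed between controls. Column sums, which moved the median of all genes by -0.32 with Myod1, gave 78 higher and 23 lower with Myod1 (77.2% higher, against 86.4%) and 20 higher with Pparg. The 75th percentile moved it by -0.18. Without members that overlap a protein-coding gene, 54, 6 and 28 were higher, and 8 and 2 lower with Myod1 and Pparg. With at least 50 reads, 9 were lower with Myod1, 4 higher and 5 lower with Pparg, and 1 differed between controls. Against both controls, 7 were higher and 2 lower with Pparg, and 10 were lower with Pparg against the other control. With 2 FPKM in the control, a setting added after seeing the data, 11, 1 and 10 were higher. Added likewise were a highest FPKM of at most 10 and under 10% shared exon bases. Calls lost against the other control were Snhg6 with Myod1 (0.66), Gm38399 (-0.68) and Zfp469 (-0.69) with Pparg, and Gm44386 (0.97), Gm12473 (0.77) and Neat1 (0.95) with the knockdown. In turn 17 named ratios passed 2-fold against the other control and not their own, such as Gm42047 (-1.51) and Gm15640 (1.64) with Myod1 and A830019P07Rik with Pparg (-1.18), 15 with a pseudocount of 0.1, 5 with column sums and 2 with the 75th percentile, which lost 3. Those lost with column sums were Ndufb1-ps (0.79), Snhg6 (0.84), 1700020I14Rik (0.69) and Gm10687 (0.82), all with Myod1.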

Other observations

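Other noncoding classes of the table lie outside the rule. Of 56 processed transcripts at 2 FPKM or more in a library, 12 were at least 2-fold higher and 2 lower with Myod1, 3 and 2 with Pparg, and 13 and 3 with Setdb1 knockdown. Over all genes 14.5% and 8.20% were higher and lower with Myod1, 4.20% and 2.32% with Pparg, and 9.67% and 11.5% with the knockdown. Their median log2 ratios were 0.36, 0.23 and 0.54. Mir22hg, which contains the microRNA gene Mir22, was at 13.3 FPKM with Myod1, 3.09 with Pparg, 1.97 in the expression vector control, 6.12 with the knockdown and 2.49 in the knockdown vector control. It was highest with Myod1 and second with the knockdown.

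Zfas1, a small nucleolar RNA host, was at 10.6, 8.85, 5.25, 24.0 and 8.29 FPKM in the same order. Snhg8 was at 18.0, 6.97, 6.03, 16.8 and 8.55 FPKM, and Gas5 at 8.09, 8.15, 6.85, 13.4 and 9.24 FPKM. Snhg15 was at 10.6, 10.3, 5.45, 27.0 and 14.6 FPKM, and its controls differed by 1.27 on the log2 scale. Firre, an RNA of nuclear organisation, was at 1.38, 1.11, 1.86, 4.20 and 1.49 FPKM, with the knockdown library alone above 2. Of 23 genes marked for experimental testing 7 were higher and 2 lower with Myod1, 1 and 2 with Pparg, and 2 and 2 with the knockdown. Between the controls 3 of them were higher with the knockdown vector. Of 6 sense intronic genes 4 were higher with Myod1 and none with the knockdown. Over all genes 14.5% were higher and 8.20% lower with Myod1, and 9.67% higher and 11.5% lower with the knockdown.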
